A study of Mus musculus with 15 samples.

Results

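Tmem26, Rnase2a, Dlg3, Lipn, Serpinb9b, Lrrc32 and Mcf2l are 7 genes seldom discussed in macrophages. Mature macrophages kept 48 h without interleukin 4 (IL4) held few reads of each, from 0 to 71 over the group, and those kept with it held many. The 7 genes were chosen by that difference in reads, as named symbols, from the 25965 genes of the IL4 table. They were then followed in the 34245 genes of a separate table on macrophage differentiation. Their values with and without IL4 are therefore given as a description with no test. The comparisons between stages of differentiation played no part in the choice and are tested where reads at the lower stage allow.

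Marrow came from male C57BL/6 mice 8 to 10 weeks old, and macrophages were grown from it in CSF-1, colony-stimulating factor 1, on which the lineage depends. The IL4 libraries came from mature macrophages kept 48 h longer at 120 ng/ml CSF-1 with 20 ng/ml IL4, and the unstimulated libraries from such cells kept 48 h at the same CSF-1 without IL4. In the differentiation table, non-adherent precursors had spent 2 days at 0.6 ng/ml CSF-1 in 15% fetal calf serum (FCS), while immature macrophages had then been at 12 ng/ml for 4 days in medium with 10% FCS, as used from there on. Mature macrophages had spent 1 day at 0.6, 2 days at 12 and 7 days at 120 ng/ml. There were 3 libraries in each of the 5 groups, and their titles carry mouse numbers 1 to 3. All cells are cultured cells of 1 strain and sex, and the labels name no gene change in any group.

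IL4 is a cytokine of type 2 immunity that binds the IL4 receptor, activates Janus kinases and leads to phosphorylation of STAT6, a transcription factor that then binds DNA at promoters and enhancers. In mouse macrophages the pathway is known for turning on arginase 1 (Arg1), the secreted protein Retnla and genes of cell fusion. The 7 genes are better known elsewhere: Tmem26 as a surface marker of beige fat cells in mice, Dlg3 as a scaffold of synapses, Lipn as a lipase of keratinocytes, and Lrrc32 as the surface carrier of latent TGF-beta on regulatory T cells and platelets.

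Reads per library assigned to genes ran from 2408531 to 4214266 in the IL4 table and from 7897769 to 22167294 in the differentiation table. Levels are given as CPM, counts scaled to a common library total with TMM factors, separately for each table. All 10 macrophage markers on the list (Csf1r, Adgre1, Cd68, Lyz2 and others) had reads in every group of both tables. Their summed level was 21718 to 23570 CPM in IL4 libraries and 42770 to 57235 CPM in unstimulated libraries, and with edgeR's quasi-likelihood test 1 rose and 5 fell. Markers of mast cells and basophils, keratinocytes, adipocytes and B cells were listed at 0 in all 6 libraries of the IL4 table. A listed 0 in that table needs care, since Rhoa and Rac1, which every cell uses, were also listed at 0 there with 34367 and 31207 reads in the differentiation table, and Gapdh had 1 read against 70557. All of these are bulk libraries, in which more cells of a type and more RNA per cell cannot be told apart.

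Upstream sequence is shown for the 2 genes whose RefSeq promoter windows held a STAT motif, since STAT6 carries the IL4 signal. RefSeq windows on GRCm38.p6 were at hand for 6 of the 7 genes, 12 windows in all because Mcf2l and Dlg3 have several starts, and Lrrc32 had none. Only bases ahead of the first annotated exon are printed, 5′ to 3′ on the plus strand, on which both genes lie, and capitals mark the match.
Tmem26, chr10:68723496-68723645, STAT6 motif: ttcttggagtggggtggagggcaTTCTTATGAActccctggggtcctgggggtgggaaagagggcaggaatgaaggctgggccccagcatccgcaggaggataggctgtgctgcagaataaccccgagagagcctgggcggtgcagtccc
Mcf2l, chr8:12949173-12949415, an internal start, shorter STAT motif: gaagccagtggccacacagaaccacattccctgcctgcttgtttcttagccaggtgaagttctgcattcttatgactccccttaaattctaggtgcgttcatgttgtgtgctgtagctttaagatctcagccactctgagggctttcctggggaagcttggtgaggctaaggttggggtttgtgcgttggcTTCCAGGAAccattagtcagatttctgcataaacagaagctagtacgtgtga
The STAT6 form, TTC and GAA parted by any 4 bases and searched on both strands of the 250 bases upstream, was in 1 of the 12 windows, that of Tmem26, and in 5.85% of all 32851 RefSeq windows of that length. Tmem26 held it at 2 places, TTCTTATGAA starting 227 bases and TTCTCTGGAA starting 41 bases before the RefSeq start; the second lies in the first exon of the GENCODE M21 model and is not in the printed run. The shorter form, with 3 bases between, was in 1 of the 12 windows and 7.02% of all, as TTCCAGGAA 59 bases before the internal Mcf2l start. The core GAGGAA, bound by the macrophage factor PU.1, was in 5 of the 12 windows, in Mcf2l, Serpinb9b, Rnase2a and Lipn, and in 23.3% of all. TGANTCA, the AP-1 motif, was in the Lipn window only, against 6.75% of all, while AGGTCA and GCGTGGG were in none of the 12, against 14.0% and 4.30% of all. Short motifs of this kind also occur by letters alone, so these are places in the sequence and not binding sites.

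Among the surface and scaffold proteins, Tmem26, a transmembrane protein of unclear function, had 220, 202 and 212 CPM in IL4 libraries 1, 2 and 3, against 0.234, 0.823 and 0 CPM in the unstimulated ones. Those levels were 2079 pooled reads against 3, so the ratio of 760 has a wide exact 95% counting interval of 260 to 3690. The 3 IL4 libraries lay close together, and the spread of the ratio came from the unstimulated side: it was 473 without unstimulated library 3, which had no read, and 1766 without library 2, which had 2 of the 3. Dlg3 (SAP102), a membrane-associated guanylate kinase that anchors NMDA receptors in neurons, had 133, 125 and 119 CPM with IL4 and 1.64, 2.06 and 1.48 CPM without. It was 75.5 times higher by pooled reads (interval 47.6 to 128), and its level with IL4 varied by no more than 1.11 times between libraries.

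Lrrc32 (GARP), which tethers latent TGF-beta to the cell surface, had 117, 110 and 71.0 CPM in IL4 libraries, and 0 reads in all 3 unstimulated libraries. Its 986 pooled reads with IL4 put it at least 361-fold higher, with a floor of 3 reads over the unstimulated group. That bound follows the depth left on the unstimulated side: it was at least 218-fold without unstimulated library 1, at least 224-fold without library 3 and at least 196-fold without both libraries numbered 1.

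Of the secreted and intracellular enzymes and inhibitors, Rnase2a (Ear11), a ribonuclease of the eosinophil-associated group that attracts macrophages in mice, had 78.3, 56.8 and 42.7 CPM with IL4 and 0 reads in each unstimulated library. Its 595 reads gave a difference of at least 218-fold, which was at least 131-fold without unstimulated library 1, at least 135-fold without library 3 and at least 108-fold without both libraries numbered 1. Serpinb9b, an inhibitor of granzyme M in mice, had the highest mean level of the 7, though Tmem26 was above it in library 3, with 300.2, 329 and 193 CPM in IL4 libraries, against 3.51, 4.52 and 1.72 CPM in unstimulated libraries. The ratio was 90.0 (interval 63.9 to 131). Lipn, an acid lipase, had 123, 114 and 91.4 CPM with IL4 and 4.45, 5.76 and 4.92 CPM without, a ratio of 22.4 (interval 17.0 to 30.1). Without IL4 it was thus low but present in each library.

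Mcf2l (Dbs), an exchange factor of the Dbl family that loads RhoA and Cdc42 with GTP, had 198, 127 and 160 CPM in IL4 libraries and 7.26, 6.99 and 5.66 CPM in unstimulated libraries. Its 71 unstimulated reads were the most of the 7, and its ratio was 24.9 (interval 19.6 to 32.0). For all 7 genes every IL4 library lay above every unstimulated one, as their choice implies; among all 8936 genes tested in this table, 20.8% were called with IL4, and 10.5% of the 8936 were called higher (edgeR adjusted p under 0.05).

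**Figure D1:**
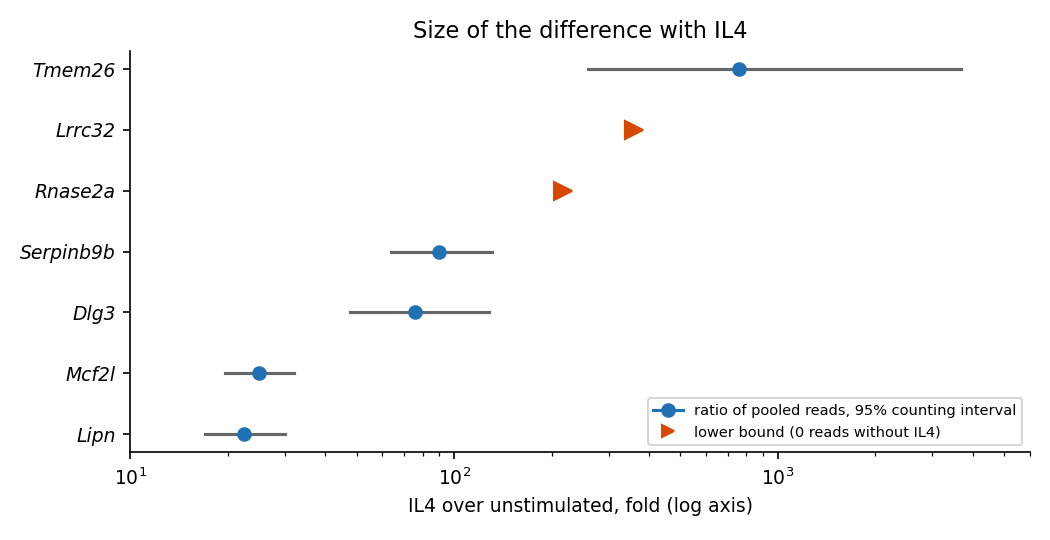
Fold of IL4 over unstimulated cells for each gene, on a log axis. Circles are ratios of reads pooled over 3 libraries with exact 95% counting intervals, and triangles are lower bounds for genes with 0 unstimulated reads; the ratios run from 22.4 for Lipn to 760 for Tmem26, whose interval is the widest.

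The genes did not all vary alike between libraries. With IL4, library 3 was the lowest of the 3 for Dlg3, Lipn, Serpinb9b, Lrrc32 and Rnase2a, and library 2 for Tmem26 and Mcf2l. Library 1 was the highest for 6 of the 7 and library 2 for Serpinb9b, and the highest library exceeded the lowest by 1.09 times for Tmem26 and up to 1.83 times for Rnase2a. Between libraries with the same number, the ratios of Dlg3 were 81.0, 60.9 and 80.8, those of Lipn 27.6, 19.8 and 18.6, those of Serpinb9b 85.4, 72.8 and 112, and those of Mcf2l 27.2, 18.2 and 28.3 for numbers 1, 2 and 3. No number had the largest ratio for all 4 of these genes. Among 23 known IL4 genes called higher in the same fit, libraries 1, 2 and 3 were the lowest for 8, 7 and 8.

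Per kb of exon, counted over all annotated exons of a gene, the order changed. That length can exceed the length of any 1 transcript, as for genes with several starts such as Mcf2l. Levels per kb are therefore approximate, and the order depends on this choice of length. Rnase2a, the shortest with 690 exonic bases, stood at 85.9 ± 26 CPM per kb in IL4 libraries (SD, n = 3), and Serpinb9b at 81.8 ± 21.4. Lipn followed at 58.1 ± 8.63, Tmem26 at 40.0 ± 1.74, Dlg3 at 21.5 ± 1.16, Lrrc32 at 21.2 ± 5.27 and Mcf2l, the longest with 12760 exonic bases, at 12.7 ± 2.76 CPM per kb. The libraries of Rnase2a and Serpinb9b, of Serpinb9b and Lipn, of Dlg3 and Lrrc32, and of Lrrc32 and Mcf2l overlapped, so these neighbours in the order were not apart beyond the spread of the libraries. Within libraries, Rnase2a and Serpinb9b, and Dlg3 and Lrrc32, changed places from one library to another, while Serpinb9b was above Lipn and Lrrc32 above Mcf2l in each of the 3. Lipn against Tmem26 and Tmem26 against Dlg3 did not overlap.

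Reads were assigned to genes that are mostly distinct in sequence. Of all 31-base words in the exons of Tmem26, Dlg3 and Lipn, 0% occurred in another gene of GENCODE M21, while the share was 5.02% for Serpinb9b, mainly with Serpinb9, 6.36% for Rnase2a, mainly with Ear1 and Ear10, 0.894% for Mcf2l and 0.279% for Lrrc32. Serpinb9b overlaps an exon of Gm36099 on the other strand, and Mcf2l overlaps exons of Gm15351 and Gm15353 on the other strand and of Gm38671 on its own. The strand setting of the counting is not given in the sources used here, so reads of such partners cannot be told apart. On GRCm38, as the differentiation table gives them, Tmem26 spans chr10:68723646-68782650, Dlg3 chrX:100767722-100818410, Lipn chr19:34067358-34084918, Serpinb9b chr13:33027416-33041884, Mcf2l chr8:12873806-13020905 and Lrrc32 chr7:98489283-98502181, all on the plus strand, and Rnase2a chr14:51255266-51256112 on the minus strand. The IL4 table gives Tmem26 slightly different limits, chr10:68723746-68782654. It gives Lrrc32 a clearly shorter span, chr7:98494222-98501831, so the gene models of the 2 tables differ for Lrrc32.

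Other genes met the same description. With the members' own extremes as limits, at most 71 unstimulated reads and at least 595 IL4 reads in all, 30 genes of the table qualified, the 7 included. Of the 30, 5 had 0 unstimulated reads and 9 had 3 or fewer. Ranked by the ratio with unstimulated reads set to at least 3, Retnla and Ocstamp, a gene of macrophage fusion, came first, Tmem26 was number 3, Lrrc32 number 6, Arg1 number 7 and Rnase2a number 10. Serpinb9b, Dlg3, Mcf2l and Lipn were numbers 16, 17, 23 and 24. Genes with 0 unstimulated reads, such as Lrrc32 and Rnase2a, enter this order by lower bounds that fall with the depth left when a library is dropped, so their places among the ratios are not fixed. The classical marker Arg1 had a ratio of 326 (interval 253 to 429), which lies within the wide interval of Tmem26 and above those of Serpinb9b, Dlg3, Mcf2l and Lipn. Unstimulated library 3 held 49 of the 59 unstimulated Arg1 reads, a spread between libraries that the counting interval does not cover. The levels of the 7 with IL4 were well below the 1801 ± 137 CPM of Arg1 (SD, n = 3).

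**Figure D2:**
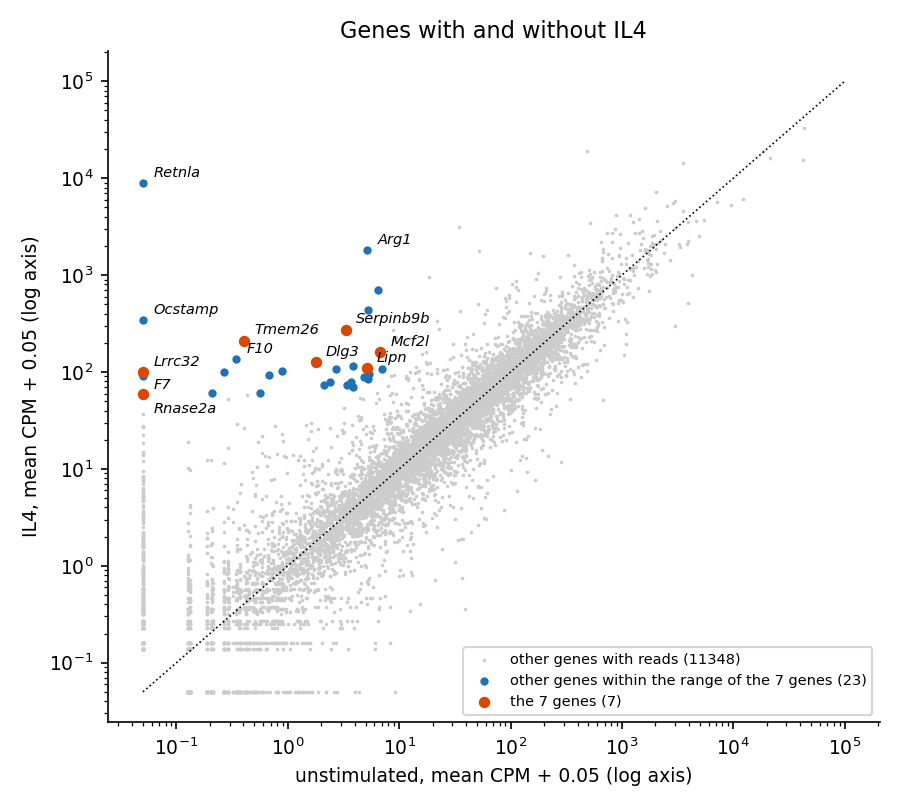
Mean CPM of each gene in the 3 IL4 libraries (vertical) against the 3 unstimulated libraries (horizontal), log axes, with 0.05 CPM added to show zeros. The 7 genes (orange) and 23 others within the same limits (blue) lie at the upper left, with Retnla and Ocstamp above Lrrc32 and Rnase2a at 0 unstimulated reads.

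Whether the 7 genes had been present at an earlier stage was asked next, in the differentiation table. Precursors, immature and mature macrophages differed widely there, since with edgeR's quasi-likelihood test 49.2% of 13359 genes differed between immature macrophages and precursors, 14.9% between mature and immature macrophages and 54.3% between mature macrophages and precursors. Rnase2a had 1 read in all 9 libraries and was not tested. The other 6 passed the filter on low counts. Lrrc32 passed only through precursors and Serpinb9b only through mature macrophages, where they were highest. Lipn had few reads in precursors and passed only through the later stages. These genes are set against the stages where they were low by their reads alone, with no p. Of the rest, Mcf2l fell and Tmem26 and Dlg3 did not pass, both for mature macrophages against precursors, where 25.8% of all genes were called higher and 28.5% lower, and for immature macrophages against precursors, where 22.5% were called higher and 26.6% lower. For mature against immature macrophages Lipn, Mcf2l, Tmem26 and Dlg3 did not pass, with 7.52% of all genes called higher and 7.38% lower.

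Of the 3 stages, Lrrc32 and Mcf2l were highest in precursors. Mcf2l had 53.5, 46.9 and 75.4 CPM in precursors, 5.51, 6.24 and 8.82 CPM in immature and 4.61, 5.73 and 3.37 CPM in mature macrophages. It had a log2 change of -3.1 ± 0.29 in immature macrophages against precursors (SE, edgeR adjusted p = 1.63e-05) and of -3.69 ± 0.30 in mature macrophages against precursors (adjusted p = 4.47e-06). Between mature and immature macrophages the log2 change was -0.59 ± 0.29, with overlapping libraries and an adjusted p of 0.200 in edgeR. Its 162 ± 35.2 CPM with IL4 stood above the 58.6 ± 14.9 CPM of precursors (SD, n = 3 each), though the tables were scaled apart and this pair was not tested.

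Lrrc32 had 6.64, 7.86 and 11.5 CPM in precursors, 0 reads in all immature libraries and 1 read, in library 3, in mature macrophages. Immature macrophages were at least 84.5-fold lower than precursors by pooled reads. The 1 read in mature macrophages leaves their ratio to precursors open over a counting interval of 50.8-fold to 11253-fold lower, and immature and mature macrophages, both at or under the floor of 3 reads, are not set against each other. All precursor libraries were above all later ones. Precursor libraries also held reads of many other lineages. There, 10 of 12 markers of T and NK cells had reads, summing to 20.4 to 25.2 CPM, with 1 read of Foxp3, the factor of regulatory T cells. All 9 markers of platelets, megakaryocytes and endothelium had reads, summing to 365 to 808 CPM. In mature macrophages the first sum was 1.87 to 2.75 CPM and the second 118 to 185 CPM. Their part in the Lrrc32 reads of precursors was not tested. Of the 12 T and NK markers, 11 were listed at 0 in the IL4 libraries and their controls, Foxp3 among them, and the sum was 0.535 to 2.30 CPM with IL4 and 0 to 0.468 CPM without, in libraries with 71.0 to 117 CPM of Lrrc32. Of the 9 markers of platelets, megakaryocytes and endothelium, 8 had reads in the IL4 table, summing to 149 to 235 CPM with IL4 and 322 to 603 CPM without. The markers did not all follow that sum. In edgeR 3 of them were tested, of which 1 was called higher, 1 lower and 1 did not pass, against 10.5% and 10.3% of all genes. Vwf, on this list and among the 30 genes above, had 717 reads with IL4 and 23 without.

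Lipn and Serpinb9b took the opposite course. Lipn had 0.197, 0.282 and 0 CPM in precursors, 0.866, 3.89 and 4.09 CPM in immature and 10.5, 9.12 and 10.6 CPM in mature macrophages. By pooled reads it was 14.0 times higher in immature macrophages than in precursors (interval 7.25 to 30.4). In mature macrophages it was 53.4 times higher than in precursors (interval 28.7 to 112). No libraries overlapped between stages. The further log2 change of 1.80 ± 0.55 (SE) in mature against immature macrophages had an adjusted p of 0.0511 in edgeR. It passed with DESeq2 (0.00978), without the filter on low counts (0.0297) and with limma on the log2 RPM (0.0441). It did not pass with RLE scaling (0.0510), with the replicate block (0.0655) or with any 1 library of these stages left out (0.0565 to 0.103, edgeR).

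Serpinb9b had 0 reads in all precursors, 0.866, 0.614 and 1.41 CPM in immature and 9.14, 1.64 and 6.35 CPM in mature macrophages. By pooled reads it was at least 16.2-fold higher in immature macrophages and at least 108-fold higher in mature macrophages than in precursors. Mature library 2 lay just above the immature libraries and far below the other 2 mature ones. In mature against immature macrophages the Serpinb9b ratio of pooled reads was 6.69 (interval 4.50 to 10.3). Serpinb9b passed the filter on low counts only through the mature libraries, so no p is given. After 48 h more without IL4, in the other table, Lipn averaged 5.04 ± 0.66 CPM, against 10.1 ± 0.82 CPM at the mature stage, and Serpinb9b 3.25 ± 1.42 CPM, against 5.71 ± 3.79 CPM (SD, n = 3 each); values were not tested across tables.

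Tmem26 and Dlg3 were low at every stage, at no more than 2.91 CPM in any library. Tmem26 had 2.04, 1.41 and 0.962 CPM in precursors, 0.866, 0.614 and 0.511 CPM when immature, then 0, 0.819 and 2.75 CPM in mature macrophages, where the libraries ranged from no read to 36. None of its 3 comparisons passed edgeR's test (log2 changes -1.12, 0.83 and -0.28 for immature over precursor, mature over immature and mature over precursor; adjusted p = 0.338, 0.604 and 0.797), and each sign turned in at least 1 other setting that was tried. Dlg3 had 0.855, 2.50 and 1.76 CPM in precursors, 1.10, 1.02 and 1.41 CPM in immature and 2.91, 1.40 and 2.75 CPM in mature macrophages. Its log2 changes, -0.56, 1.02 and 0.46 in the same order, did not pass either (adjusted p = 0.368, 0.195 and 0.422), and the mature over precursor change passed with limma on the log2 RPM (1.75, adjusted p = 0.0177). Here 3 reads in a library correspond to 0.121 to 0.383 CPM, and Dlg3 exceeded that in every library.

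Rnase2a had 1 read, in precursor library 3, and none in the other 8 differentiation libraries, so with 3 reads as the floor over a group it was at or below 0.0572 CPM in precursors, 0.0990 CPM in immature and 0.0883 CPM in mature macrophages. It is the 1 gene of the 7 with no stage at which it was detectable beyond the floor. The same precursors held reads of all 8 eosinophil markers, summing to 181 to 212 CPM, with 4760 reads of Prg2 and 261 of Epx, granule proteins of eosinophils. Rnase2a was therefore at the floor in the libraries where these markers were highest.

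**Figure D3:**
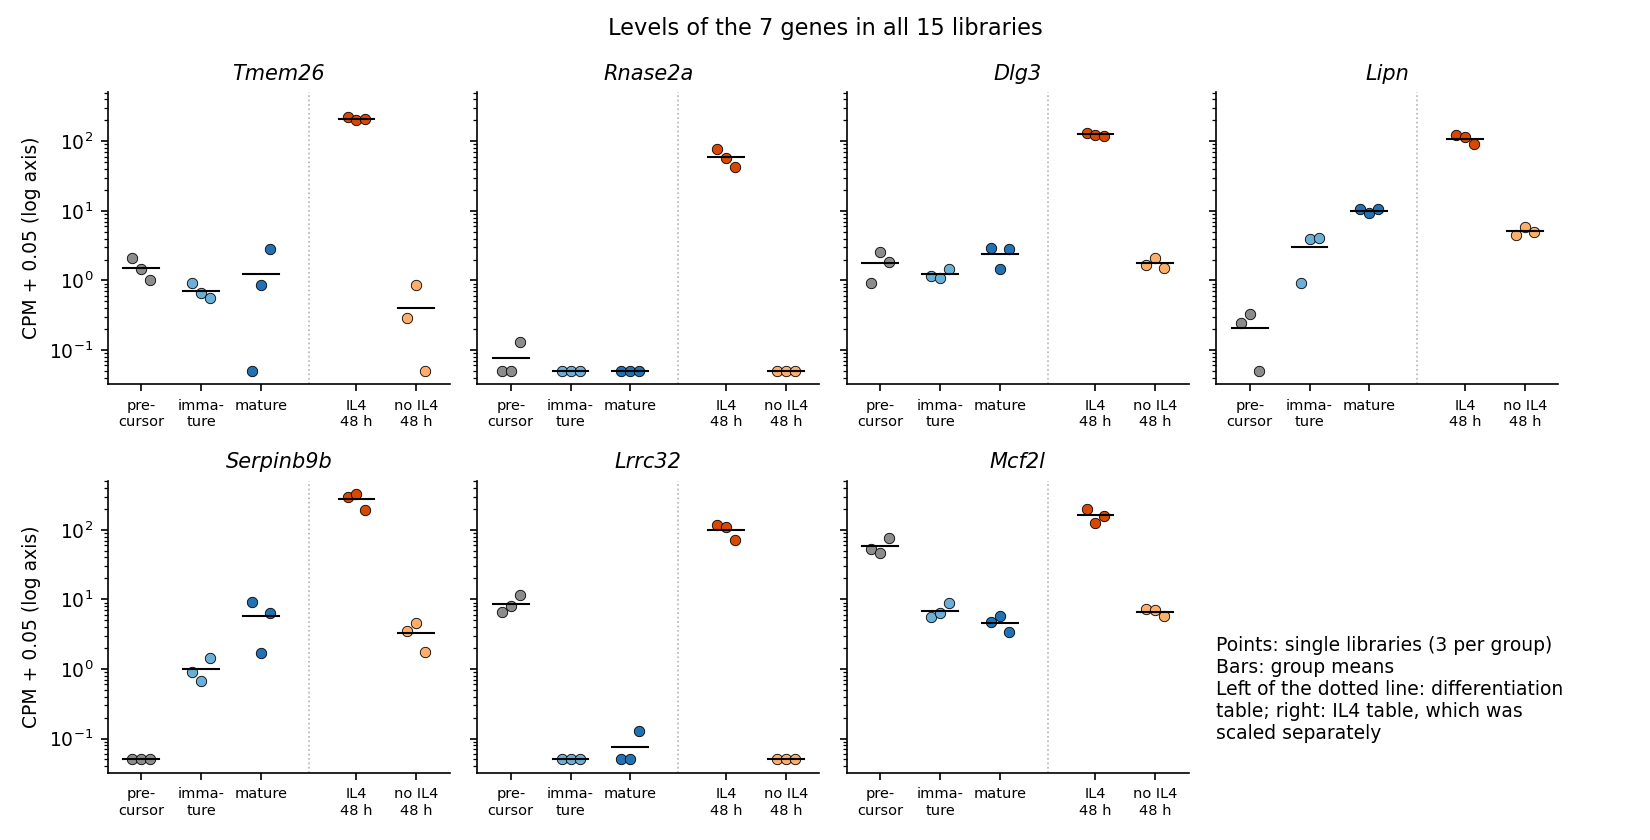
CPM of the 7 genes in all 15 libraries, on a log axis with 0.05 CPM added; points are libraries, bars are group means, and the dotted line parts the 2 tables. Lrrc32 and Mcf2l are high in precursors and with IL4, Lipn and Serpinb9b climb over the 3 stages, and Rnase2a is at 0 or 1 read everywhere but with IL4.

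The wider set also held genes of both directions. Of the 23 other genes within the limits above, 20 were tested between mature macrophages and precursors, where 3 rose, 9 fell and 8 did not pass, against 25.8% and 28.5% of all genes; a gene may have passed the filter through the stage where it was high, so the counts are a description. Those that fell included Gpc1 (the proteoglycan glypican 1, -5.14 ± 0.34, edgeR adjusted p = 1.25e-06) and Irf4 (a transcription factor of IL4 responses, -4.97 ± 0.38, adjusted p = 3.34e-06), in log2 units with SE. Fn1 (fibronectin) had a log2 change of -10.56 ± 0.73, from 474 CPM in precursors to 0.363 CPM in mature macrophages. Fn1 passed the filter only through precursors, so no p is given for it. These 3 genes were picked for their values. The limits that define the 30 used only the IL4 table.

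Over the 15 libraries, the genes whose levels followed each member most closely were taken from 8042 candidates by Pearson's r of log2 CPM; the points share library, table and depth, and for every member the 3 IL4 libraries are the highest, though Mcf2l in precursors, at up to 75.4 CPM, comes near its lowest IL4 library at 127 CPM. For Mcf2l they were Gpc1 (r = 0.982) and Lrrc32 (r = 0.973), and for Lrrc32 Npas2, a clock transcription factor (r = 0.982), and Gpc1 (r = 0.981). Gpc1 averaged 76.4 CPM in precursors, 4.21 in immature and 2.12 in mature macrophages, and 432 CPM with IL4 against 5.25 without. For Serpinb9b they were Mmp12, the macrophage elastase (r = 0.981), and Clic4 (r = 0.977), and for Lipn Dcbld2 (r = 0.985) and Galnt7 (r = 0.974). Mmp12 shared the low mature library 2, with 1356, 256 and 1935 CPM in mature libraries 1, 2 and 3. Tmem26 went with Ocstamp (r = 0.962) and Slc9a3r2 (r = 0.961), Dlg3 with Retnla (r = 0.980) and Ocstamp (r = 0.972), and Rnase2a with Edn1 and Ppp1r3c (r = 0.998 each), all 3 of which had 0 unstimulated reads. Among the members, Lipn and Serpinb9b were alike (r = 0.960), while Lipn and Mcf2l were not (r = 0.214).

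Genes beside the members were looked at next, taking on each side the nearest with at least 10 reads in the IL4 table. Of these 14 neighbours, 11 were tested; 2 were called higher with IL4, 1 lower and 8 did not pass (edgeR, 10.5% of all genes higher and 10.3% lower), and with the replicate number as a block 4 were called higher and 1 lower. Mcf2l stood out. F7, coagulation factor VII, begins 5.13 kb beyond its end on chromosome 8 and had 99.7, 86.5 and 83.8 CPM in IL4 libraries and 0 reads without, a difference of at least 325-fold; it passed the filter only through the IL4 libraries. F10, coagulation factor X and the next gene on, had 196, 94.5 and 117 CPM with IL4 and 0.468, 0.411 and 0 CPM without, a ratio of 502 (interval 172 to 2439); it was named after its values were seen. On the other side Atp11a, a phospholipid flippase gene 5.08 kb away, did not pass (0.65 ± 0.29 log2, adjusted p = 0.159; 0.0204 with the replicate block).

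The 3 adjoining genes differed in their stages. F10 averaged 40.5 ± 6.73 CPM in precursors, 9.31 ± 2.10 in immature and 0.249 ± 0.115 in mature macrophages. Its log2 change in mature macrophages against precursors was -7.22 ± 0.36 (SE). With 9 reads in all in mature macrophages, F10 passed the filter only through the earlier stages, so no p is given. F7 averaged 2.52 ± 1.14 CPM (SD, n = 3) in precursors, against 5.13 ± 1.36 CPM in immature ones, and had 0 reads in mature macrophages. Mcf2l kept a few CPM in mature macrophages where F7 had none.

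**Figure D4:**
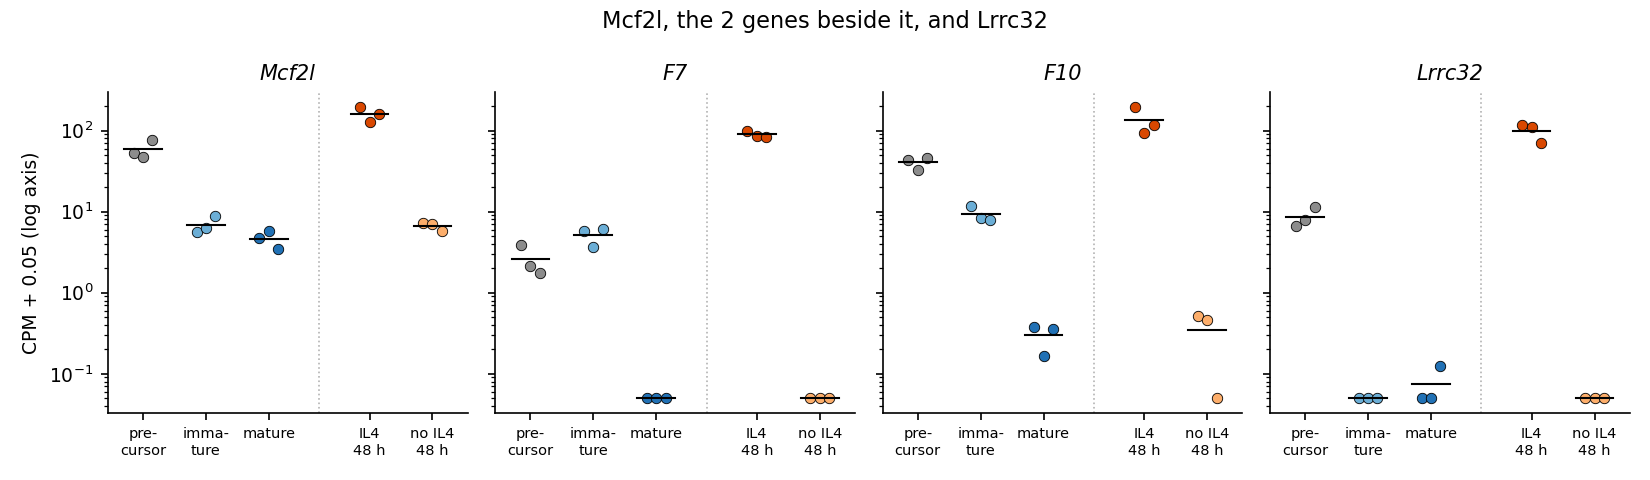
CPM of Mcf2l, its neighbours F7 and F10 and, on another chromosome, Lrrc32, in all 15 libraries on a log axis with 0.05 CPM added; points are libraries and bars are means. All 4 average 90.0 CPM or more with IL4; Mcf2l, F10 and Lrrc32 are higher in precursors than at the later stages, and F7 is highest of the stages in immature macrophages.

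Serpinb9, 9.46 kb from Serpinb9b and its closest relative by shared words, is an inhibitor of granzyme B. It had 37.7, 25.4 and 23.7 CPM with IL4 against 13.3, 11.9 and 10.1 CPM without, and rose by 1.30 ± 0.24 on the log2 scale (edgeR adjusted p = 0.00316). Its ratio of pooled reads was 2.51, against 90.0 for Serpinb9b. Beside Tmem26, Rhobtb1, 369 kb away, fell by 3.0 ± 0.23 (adjusted p = 1.26e-05), and Arid5b, 445 kb away on the other side, did not pass (adjusted p = 0.142; 0.0230 with the replicate block). The neighbours of Dlg3, Lipn and Lrrc32 that were tested, Kif4, Snx12, Lipo3, Stambpl1 and Emsy, and Mettl17 near Rnase2a, did not pass.

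Each gene was then set beside the genes it is usually grouped with, leaving the member itself out. Over all 8936 genes the median log2 change with IL4 was 0.0062, and 10.5% rose and 10.3% fell. Of 20 other genes of the ribonuclease A group with their inhibitor, 14 were listed at 0 and 3 were tested. Rnase4 is one of the 14, although it had 22723 reads in the differentiation table, so its listed 0 gives no level. Of the 3, Rnh1 rose, Rnase6 did not pass and Ear2 passed the filter only through the IL4 libraries. Ear2, another eosinophil-associated ribonuclease, had 12, 25 and 10 reads in IL4 libraries and 0 in unstimulated libraries, at least 17.2-fold higher. Like Lrrc32 it had been present in precursors, at 6.99 CPM, and had 0 reads in immature and mature macrophages. Rnh1, the inhibitor that binds ribonucleases of this family, averaged 815 ± 79.3 CPM with IL4 and 408 ± 32.8 CPM without (SD, n = 3 each), and rose by 1.00 ± 0.16 (edgeR adjusted p = 0.00138). Rnase6, an antimicrobial ribonuclease, was at 52.5 and 51.7 CPM.

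Since Rnase2a and Ear2 are named for eosinophils, markers of those cells were checked. Epx, Prg2, Prg3, Il5ra and Ear6 were listed at 0 in all 6 libraries of the IL4 table, 5 of the 8 markers. Ccr3, the eotaxin receptor, had 40.6, 29.4 and 18.4 CPM with IL4 and 3.51, 4.94 and 0.985 CPM without. Its log2 change was 3.32, and it passed the filter on low counts only through the IL4 libraries. Siglecf had 31 reads with IL4 and 0 without, and Alox15 had 7 and 1. The list summed to 20.7 to 44.4 CPM with IL4 and 1.23 to 4.94 CPM without.

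Of 26 clade B serpins and granzymes in the table, 18 were listed at 0 and 5 were tested, of which 3 rose and 2 did not pass (median log2 change 1.30). Those that rose were Serpinb9, Serpinb6b (2.26 ± 0.50, edgeR adjusted p = 0.00754) and Serpinb12. Serpinb12 had 32 reads with IL4 and 6 without, a log2 change of 2.47 ± 0.59. It passed the filter only through the IL4 libraries, so no p is given and its place in the count is a description. Serpinb6a, the one with the most reads, averaged 504 ± 37.3 CPM with IL4 and 673 ± 81.7 CPM without and did not pass (adjusted p = 0.108); with the replicate block it and Serpinb8 were called lower. Gzmb and Gzmm, the proteases that Serpinb9 and Serpinb9b inhibit, were listed at 0.

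Of 13 lipases grouped with Lipn, 5 were tested, of which 2 rose and 3 did not pass (median 0.52). Lpl, lipoprotein lipase, averaged 4193 ± 743 CPM with IL4 and 878 ± 216 CPM without and rose by 2.26 ± 0.23 (edgeR adjusted p = 5.82e-05). Pnpla2, adipose triglyceride lipase, rose by 1.05 ± 0.18 (adjusted p = 0.00191). Lipa, the lysosomal acid lipase, had 2105 ± 146 CPM with IL4 and 1469 ± 317 CPM without, a log2 change of 0.52 ± 0.19 that did not pass (adjusted p = 0.0847) and passed with the replicate block (0.0123). Lipm, a close relative of Lipn, had 3 reads with IL4 and 1 without.

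The group of Dlg3 holds membrane-associated guanylate kinases and their partners. Of 27 genes, 14 were listed at 0, the glutamate receptor genes among the neuronal partners included, and 11 were tested, of which 2 rose and 9 did not pass (median -0.05), near the 20.8% called of all genes; without unstimulated library 2 the count was 1. Dlgap4 rose by 0.92 ± 0.24 (edgeR adjusted p = 0.0201). Dlg1, of the same subfamily as Dlg3, averaged 38.2 ± 9.15 CPM with IL4 and 41.6 ± 10.2 CPM without (adjusted p = 0.814), and Dlg4 averaged 5.64 ± 2.31 and 5.09 ± 0.28 CPM (adjusted p = 0.854). Mpp1, with the most reads of the group, did not pass (-0.32 ± 0.17, adjusted p = 0.244).

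The exchange factors of Mcf2l's family moved both ways. Of 36 genes with the small GTPases they act on, 27 were tested, of which 5 rose, 11 fell and 11 did not pass (median -0.41). Rhoc rose by 2.12 ± 0.18 (edgeR adjusted p = 2.01e-05) and the exchange factor Plekhg1 by 2.83 ± 0.29 (adjusted p = 6.9e-05), while Fgd2, which acts on Cdc42, fell by 3.1 ± 0.32 (adjusted p = 6.94e-05) and Arhgef7 by 1.12 ± 0.17 (adjusted p = 0.000754). Plekhg1 had the stages of Mcf2l, with 34.0 CPM in precursors, 4.49 in immature and 2.41 in mature macrophages, and 32.2 CPM with IL4 against 4.31 without. Cdc42 had the most reads and did not pass (-0.49 ± 0.26, adjusted p = 0.235). Rhoa, another partner of Mcf2l, was listed at 0 as said above and gives no value here.

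In the group of Lrrc32, latent TGF-beta and its handling, 8 of 18 genes were tested, of which 1 rose, 2 fell and 5 did not pass (median 0.05). Tgfb1, the ligand that Lrrc32 holds, had 377, 324 and 434 CPM with IL4 and 741, 641 and 486 CPM without, and fell by 0.72 ± 0.20 (edgeR adjusted p = 0.0256). Tgfbr2, a receptor chain, fell by 1.91 ± 0.25 (adjusted p = 0.000275), and Smad7, an inhibitor of the pathway, rose by 2.27 ± 0.27 (adjusted p = 0.000144). Nrros (LRRC33), the related carrier of latent TGF-beta on macrophages and microglia, averaged 19.0 ± 3.07 CPM with IL4 and 25.7 ± 5.09 CPM without and did not pass (adjusted p = 0.216). Itgb8, a chain of the integrin that frees TGF-beta from such carriers, had 13, 8 and 14 reads with IL4 and 0 without, at least 12.8-fold higher, and was under the filter. With the replicate block Furin and Tgfbr1 were also called higher.

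For Tmem26, 8 of 11 other genes of thermogenic fat were listed at 0, Ucp1, the uncoupling protein, among them. Prdm16, the 1 gene tested, had 27 reads with IL4 and 44 without and did not pass (edgeR adjusted p = 0.307). P2rx5 had 33 reads with IL4 and 0 without, at least 12.1-fold higher, and was under the filter.

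**Figure D5:**
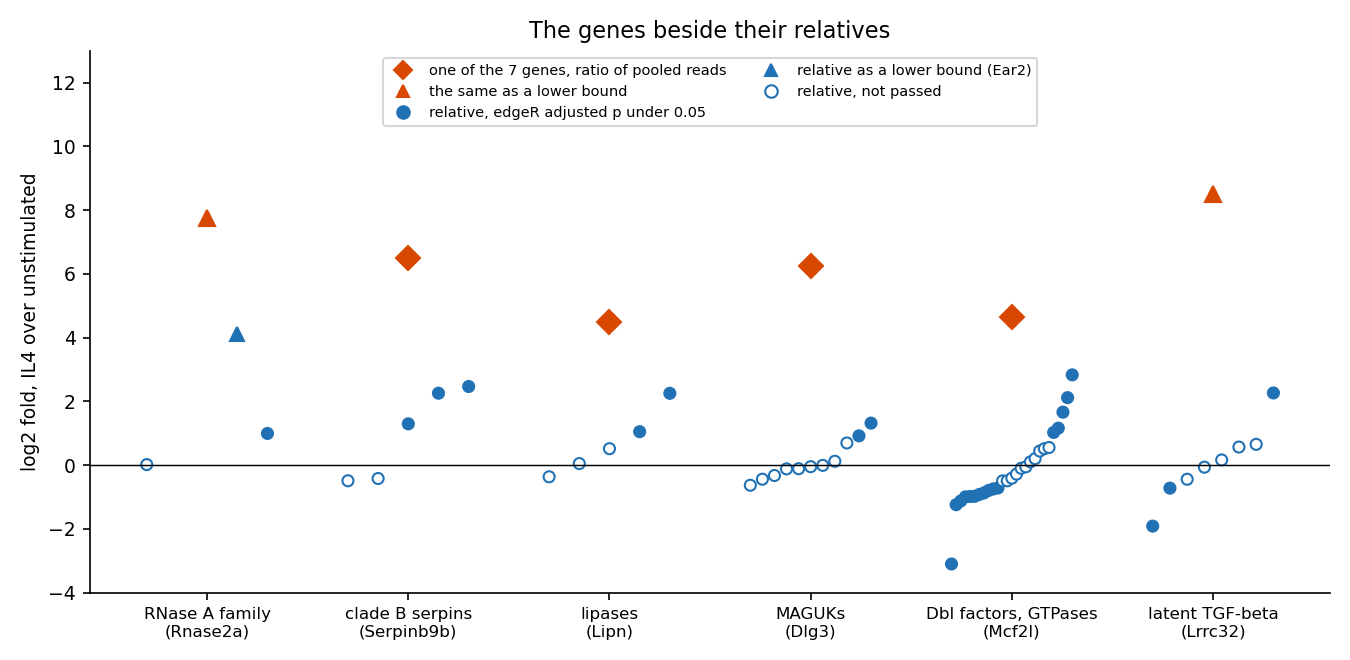
Log2 fold of IL4 over unstimulated cells for the members (orange, pooled reads; triangles are lower bounds) and for the tested genes grouped with them (blue, edgeR; open circles did not pass). Each member is plotted above every other tested gene of its group, Rnase2a and Ear2 both as lower bounds; the members were chosen for this difference.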

How the data were processed

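RNA of 15 libraries was sequenced by Ion Torrent, from column-purified RNA treated with DNase, 1 µg of total RNA each, per the labels. Reads were aligned with HISAT2 2.0.5, edgeR was used, and the builds GRCm38.p6 and GRCm39.p6 are named, per the submitters' processing notes; the sources used here do not give the counting program. Raw counts per gene were deposited by the authors, 1 table for differentiation and 1 for IL4, and log2 RPM for the same genes, whose sorted values are the same in each library of a table, so they were matched to a common distribution. The 3 columns of authors' means were not used, and the 83 and 56 rows without an identifier carry a gene name and were kept. Rnase2a is listed as Ear11 in the IL4 table and was matched by Ensembl identifier.

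Counts were analysed with edgeR 4.0.16 in R 4.3.3: filterByExpr with a minimum count of 10, TMM, glmQLFit and glmQLFTest, two-sided, Benjamini-Hochberg over all genes tested, with separate fits for the 9 libraries of differentiation and the 6 of the IL4 table. The script was tested on simulated data. Ratios use reads pooled over 3 libraries, and intervals and the floor of 3 reads cover counting error only. Alternatives were RLE scaling, DESeq2 1.42.0, no filter, limma 3.58.1 on the deposited log2 RPM, a replicate block and leaving out libraries. The titles give each group mouse numbers 1 to 3, but IL4-table columns are named by other codes that differ between its groups, so it is not clear that a number is 1 animal. Deviations from group means correlated between same-numbered libraries by 0.591, 0.175 and 0.413 in the IL4 table, and between differently numbered ones by -0.487 to 0.247. In the differentiation table the ranges were -0.129 to 0.165 and -0.128 to 0.139. The reported fits are not paired. In the IL4 table the number was used for ratios between same-numbered libraries, for leaving out both libraries numbered 1 and in the replicate block. Where nothing says that libraries came from separate cultures, p-values measure the spread between these libraries. Genes named are the 7 members, from each group the gene with the most reads and up to 4 called genes with the lowest p, the nearest neighbours and the 2 most similar genes. The values of 1 gene that the rule names are not reported here. The members and the lists were chosen with earlier results of these data known.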

Additional observations from a re-analysis of the deposited data

How the results depend on the processing

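With the replicate number as a replicate block, 2883 genes were called with IL4, against 1855 without it. Between mature and immature macrophages, leaving out 1 library gave 1007 to 2702 calls, against 1991 with all; the counts were 1262 without immature library 1 and 1007 without immature library 2. In the other 42 settings the counts of calls over all genes were within 1.5 times of the reported ones. Counts within the small gene groups moved more. The latent TGF-beta group had 5 calls, against 3, with DESeq2, with no filter, with the block, without unstimulated library 3 and without IL4 library 1. The serpin group had 5, against 3, with no filter and with the block. The guanylate kinase group had 1, against 2, without unstimulated library 2, and the thermogenic group had 1, against 0, with DESeq2, with no filter, without unstimulated library 2 and without IL4 library 2. With limma on the log2 RPM the split turned, to 3790 higher and 3136 lower in immature macrophages against precursors (3009 and 3559 in edgeR) and to 4067 higher and 3457 lower in mature macrophages against precursors (3445 and 3810 in edgeR). In that setting the log2 change was 0.10 for Tmem26 and 0.81 for Dlg3 in immature against precursors, and -0.33 for Tmem26 in mature against immature macrophages. That last change was -0.87 without mature library 3, which held 36 of its 43 mature reads, and Tmem26 in mature macrophages against precursors was 0.01 without precursor library 1 and 0.32 without mature library 1; over all libraries left out in turn the range was -0.87 to 1.43 for mature against immature and -1.98 to 0.32 for mature against precursors; none of these passed, and the cause was not tested. The direction of Mcf2l in both later stages against precursors held in every setting run. That of Lipn also held, with 10 reads in precursors and the filter passed only through the later stages. Serpinb9b had 0 reads in precursors, and Lrrc32 had 0 in immature and 1 in mature macrophages. The directions of Serpinb9b and Lrrc32 were therefore fixed by the reads, and the settings could not test them. Depth limits most of all the unstimulated side of the ratios, where Tmem26, Lrrc32 and Rnase2a had 3 reads or fewer. The block changed, beside the calls named above, those of Mpp6, Prex1, Fgd4, Fgd6, Il2rg, Il13ra1 and Ch25h, all called with it only.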

Other observations

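The path that carries the IL4 signal was measured in the same libraries. Of its 10 listed genes, all tested, 1 rose, 3 fell and 6 did not pass (edgeR), where 10.5% of all genes rose and 10.3% fell. Il4ra, the receptor chain that binds IL4, averaged 108 ± 5.34 CPM with IL4 and 345 ± 43.3 CPM without and fell by 1.68 ± 0.17 on the log2 scale (adjusted p = 5.66e-05). Ptpn6, a phosphatase that acts on Janus kinases, fell by 1.08 ± 0.24 (adjusted p = 0.00887), and Jak3 fell by 0.94 ± 0.22 (adjusted p = 0.0108). Irs2, an adaptor of the receptor, rose by 1.05 ± 0.31 (adjusted p = 0.036). Stat6 averaged 332 ± 22.5 CPM with IL4 and 425 ± 17.6 CPM without and did not pass (adjusted p = 0.138). With the replicate block Il2rg and Il13ra1 were also called lower.

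Of 33 known IL4 genes, 26 were tested, of which 23 rose, 1 fell (Mrc1, the mannose receptor) and 2 did not pass. Of all genes 10.5% rose and 10.3% fell. Of the 23 that rose, 14 had no more than 71 unstimulated reads and 4 had none, so these 4 could pass the filter only through the IL4 libraries. Chil3, Ccl17 and Socs1 were listed at 0 in the IL4 table, although Chil3 had 41839 reads in the differentiation table.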
